A study of Mus musculus with 8 samples.

Results

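The 10 genes described here encode regulators of the switch from making neurons to making glia, and the transcription factors and growth factor receptor that define oligodendrocyte precursors. They are *Nfia*, *Nfib* and *Nfix* (the nuclear factor I family), *Sox8*, *Sox9* and *Sox10* (the SOXE group), *Olig1*, *Olig2*, *Nkx2-2* and *Pdgfra*. They were chosen by name, with earlier results of these data known, and all 10 were found among the 33971 genes of the deposited count table. Polyadenylated RNA was sequenced in bulk from whole brains of wild-type mouse embryos at E14.5. Their wild-type dams, mated with wild-type males, received a choline-deficient diet (CDD) or normal chow (ND), with 4 brains per diet. The labels and the methods start the diets on the day of timed mating, whereas a supplementary legend places the start before mating. The numbers of dams and litters are not stated, so p-values measure the spread between these brains, which may be partly shared within a litter. In bulk RNA, fewer cells of a type and less RNA per cell cannot be told apart.

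In the embryonic forebrain and spinal cord, radial glia first produce neurons and later turn to glia. SOX9 and the NFI factors act in this switch, with SOX9 inducing *Nfia* and both proteins then working together on astroglial genes. Oligodendrocyte precursors arise first in ventral domains under Sonic hedgehog, where OLIG2 is needed to specify them and NKX2-2 acts in their later differentiation. Committed precursors turn on *Sox10* and *Pdgfra*, whose product is the receptor through which the ligand PDGF-A drives their division and spread.

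At E14.5 the first precursors are present and mature oligodendrocytes are not. The counts held the defining precursor genes, whereas late myelin genes were near 0. *Cspg4* encodes the NG2 proteoglycan of precursors, and bulk RNA does not show which cells its reads came from. It had 14.48 ± 0.851 CPM (read counts scaled to library size, mean ± SD) in the CDD brains and 17.1 ± 1.31 in the ND brains. The late myelin genes *Mobp* and *Opalin* were under 1 CPM in both diets and did not pass the filter on low counts. None of the 10 genes is specific to precursors in a whole brain. *Pdgfra* is also made by meningeal fibroblasts, *Sox10* by neural crest derivatives, *Sox9* by radial glia, and the NFI genes by radial glia and many neurons.

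Levels between genes were compared per length, on the authors' FPKM scale (fragments scaled by gene length and library size), in the ND brains. *Nfix* was the highest at 66.1 ± 1.77 FPKM (SD, n = 4), followed by *Nfib* at 38.1 ± 1.09. *Olig1* followed at 15.96 ± 1.21 and *Sox9* at 14.3 ± 1.13, and these neighbours overlapped between brains. *Nfia* stood at 11.8 ± 0.676, *Olig2* at 9.12 ± 0.452 and *Sox8* at 7.18 ± 0.245 FPKM. *Pdgfra* at 4.25 ± 0.318, *Nkx2-2* at 2.21 ± 0.131 and *Sox10* at 1.69 ± 0.112 FPKM were the lowest. No other neighbours in this order overlapped between the ND brains. In the CDD brains the order of the mean FPKM changed in its upper middle, where *Sox9* (16.6 ± 1.26) and *Nfia* (14.46 ± 2.08) stood above *Olig1* (11.3 ± 1.57).

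The diets were compared with edgeR's quasi-likelihood test over 19367 genes, with an adjusted p under 0.05 (Benjamini-Hochberg) as the threshold for a call. With CDD, 4 of the 10 genes were called, against 8.83% of all genes tested. Since the 10 were chosen with earlier results known, the shares given here describe them and are no test of the set. *Olig1*, *Pdgfra* and *Nfix* were lower with CDD (3 of 10, against 4.59% of all genes) and *Sox9* was higher (1 of 10, against 4.24%). A further 2 genes, *Nfia* and *Sox10*, had an unadjusted p under 0.05 and missed the threshold, and *Nfib*, *Sox8*, *Olig2* and *Nkx2-2* were not called. In 5 of the 10 the 4 CDD brains and the 4 ND brains did not overlap in CPM, against 15% of all genes. These were *Olig1*, *Pdgfra*, *Nfix* and *Sox10*, lower with CDD, and *Nfia*, higher. The median log2 fold change of CDD over ND was -0.09 over the 10 genes and -0.0038 over all genes.

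**Figure D1:**
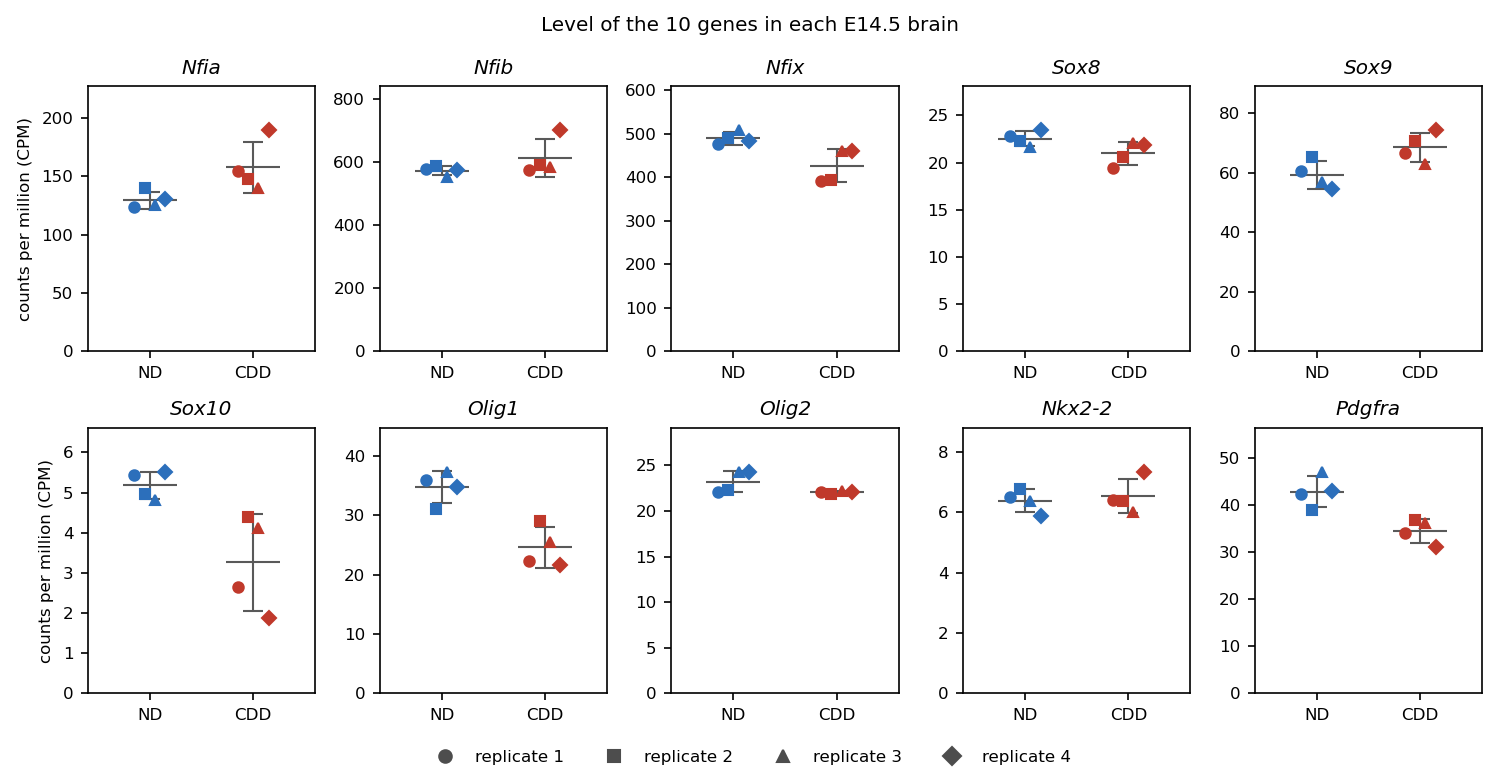
Level of each gene in CPM (counts scaled to library size, vertical axis from 0) in the 4 ND brains (blue) and the 4 CDD brains (red), with marker shapes for replicate numbers and grey bars for the mean ± SD. Olig1, Pdgfra, Nfix and Sox10 lie lower in every CDD brain than in any ND brain, Nfia lies higher in every CDD brain, and the other 5 genes overlap between the diets.

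Total counts per brain were between 31770217 and 43121170. Each of the 10 genes had at least 62 counts in every brain, and *Sox10* was the lowest. A pair of CDD libraries stand apart. CDD replicate 2 had 141 CPM summed over 20 Hox genes, which mark caudal hindbrain and spinal cord, against 0.395 to 3.05 in the other CDD brains and 0.375 to 1.16 in the ND brains. CDD replicate 4 differed most from the rest in its count profile. Its chi-square against each of the other brains, divided by the degrees of freedom, was 10.4 to 30.8. The values of the 10 genes are therefore also given without each of them. Without CDD replicate 2, 3 of the 10 were called (*Olig1*, *Pdgfra* and *Sox10*), and without CDD replicate 4, 4 were (*Olig1*, *Pdgfra*, *Nfix* and *Nfia*).

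RefSeq promoter sequence (GRCm38.p6) was at hand for 6 of the 10 genes, *Nfia*, *Nfix*, *Sox8*, *Olig2*, *Nkx2-2* and *Pdgfra*, and not for *Nfib*, *Sox9*, *Sox10* and *Olig1*. The 250 bases before the start are shown for the called genes among them, *Pdgfra* (chr5:75152001-75152250, plus strand) and the first of 4 starts of *Nfix* (chr8:84780083-84780332, minus strand). Capitals mark matches to 4 motifs searched on both strands.
Pdgfra: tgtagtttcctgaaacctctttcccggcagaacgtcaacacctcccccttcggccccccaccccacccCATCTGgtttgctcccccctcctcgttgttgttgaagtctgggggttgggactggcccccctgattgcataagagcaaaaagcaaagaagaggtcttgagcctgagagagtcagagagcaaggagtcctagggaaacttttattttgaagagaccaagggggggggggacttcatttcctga
Nfix: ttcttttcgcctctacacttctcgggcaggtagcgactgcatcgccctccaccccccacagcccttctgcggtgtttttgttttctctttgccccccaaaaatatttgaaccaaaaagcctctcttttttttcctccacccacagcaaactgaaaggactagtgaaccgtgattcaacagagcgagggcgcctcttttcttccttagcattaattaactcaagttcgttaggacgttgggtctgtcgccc
The motifs were the E-box CANNTG bound by OLIG proteins, the NFI half-site TTGGC, the SOX motif AACAAT and the GLI motif GACCACCCA. *Pdgfra* held 1 E-box and *Nfix* held none of the 4 motifs. For comparison, *Olig2* held 2 NFI half-sites and 1 SOX motif, *Nfia* held 4 E-boxes, *Nkx2-2* 3 E-boxes and 1 NFI half-site, and *Sox8* 1 of each of these. Of 27025 promoters of the same length, 66% held an E-box, 41.9% an NFI half-site, 9.65% the SOX motif and 0.211% the GLI motif. A match is a description of letters and no binding site.

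*Olig1* encodes a basic helix-loop-helix factor of the oligodendrocyte lineage and lies beside *Olig2* on the same strand (ENSMUSG00000046160, chr16:91066660-91068821, plus strand, as the authors list it on a build that is not named). It had 22.4, 29.1, 25.5 and 21.5 CPM in CDD replicates 1 to 4 and 35.9, 31.0, 37.2 and 34.8 CPM in ND replicates 1 to 4. The CDD brains were all lower, and CDD replicates 4 and 1 were the lowest. *Olig1* fell with CDD, with a log2 fold change of -0.50 (SE 0.085, 95% interval -0.68 to -0.32) and an adjusted p of 0.00287 in edgeR's quasi-likelihood test, a change of -29.1%. *Olig1* was called in all 8 fits that left out 1 brain (log2 fold change -0.58 to -0.44). Without CDD replicate 2 the value was -0.58 and without CDD replicate 4 it was -0.44.

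*Olig2* encodes the factor that specifies both motor neurons and oligodendrocytes (ENSMUSG00000039830, chr16:91022345-91025565, plus strand). It had 22.0, 21.9, 22.2 and 22.1 CPM in the CDD brains and 22.1, 22.4, 24.3 and 24.2 CPM in the ND brains. The CDD brains spanned a narrow range, with a coefficient of variation of 0.679%, around the lowest ND brains, and CDD replicates 1 and 2 lay below every ND brain. *Olig2* had a log2 fold change of -0.08 (95% interval -0.20 to 0.05) and edgeR's adjusted p was 0.487 (-0.0698 without CDD replicate 2 and -0.0773 without CDD replicate 4), so a fall of the size seen in *Olig1* lies outside the interval. *Olig2* and *Olig1* are 41095 bases apart, and their annotated transcripts share 0 stretches of 50 bases.

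The ratio of *Olig1* to *Olig2* within each brain does not depend on library size. In counts it was 1.02, 1.33, 1.146 and 0.9754 in the CDD brains and 1.63, 1.39, 1.54 and 1.43 in the ND brains. Every CDD brain had the lower ratio, with CDD replicate 2 closest to the ND brains. The difference was -0.43 on the log2 scale (exact two-sided permutation test, p = 0.0286, the smallest that 4 against 4 brains allow, and 0.0333 adjusted over 7 ratios). It was -0.518 without CDD replicate 2 and -0.368 without CDD replicate 4.

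*Pdgfra* (ENSMUSG00000029231, chr5:75312953-75358876, plus strand) had 34.0, 36.8, 36.2 and 31.1 CPM in the CDD brains and 42.5, 39.0, 47.0 and 43.1 CPM in the ND brains. All CDD brains were lower, again with CDD replicates 4 and 1 at the bottom. *Pdgfra* fell by 0.31 on the log2 scale (SE 0.066, 95% interval of the change -0.45 to -0.18), a change of -19.5%, with edgeR's adjusted p at 0.0069. It was called in all 8 fits that left out 1 brain (-0.36 to -0.27), among them -0.34 without CDD replicate 2 and -0.27 without CDD replicate 4. The call was lost on the authors' FPKM with limma (adjusted p = 0.0572).

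Genes of the meninges, which also make *Pdgfra*, were measured beside it. Of 14 marker genes of meningeal fibroblasts, all were detected and tested, 5 were lower and 2 were higher with CDD, with a median log2 fold change of -0.23. Their summed level was 511 to 568 CPM in the CDD brains and 544 to 652 CPM in the ND brains, so the diets overlapped. *Col1a1*, a fibrillar collagen, fell by 0.23 on the log2 scale, and *Slc6a13*, a GABA transporter of the meninges, fell by 0.57 (edgeR's adjusted p of 0.0126 and 0.00128). *Col1a1* lost its call without ND replicate 1 (0.0652) or 3 (0.0823). Of the 14, 2 were lower without ND replicate 1 or 3 and 3 without CDD replicate 4 or ND replicate 4. The part of these cells in the *Pdgfra* result was not tested.

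The PDGF ligands and the sister receptor *Pdgfrb* were a fixed list of 5 genes. Of these, 1 was lower and 0 were higher with CDD. *Pdgfa*, which encodes the ligand of oligodendrocyte precursors, went from 14.7 ± 0.318 CPM in the ND brains to 12 ± 1.07 CPM with CDD. This was a fall by 0.29 on the log2 scale (SE 0.077) with edgeR's adjusted p at 0.0253, and the diets did not overlap. The call was lost in 5 of the 8 fits that left out 1 brain, those without CDD replicate 1 or any 1 ND brain (adjusted p 0.0531 to 0.0877). *Pdgfrb*, the receptor of mural cells, had 43.3 ± 1.16 CPM in the CDD and 43.3 ± 1.93 CPM in the ND brains.

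*Sox10* encodes the factor that drives myelin genes and marks the committed lineage (ENSMUSG00000033006, chr15:79039108-79049440, minus strand). Its reads were few, with 88, 152, 177 and 62 counts in the CDD brains and 186, 159, 167 and 190 in the ND brains. In CPM these were 2.66, 4.40, 4.11 and 1.87 with CDD and 5.44, 4.97, 4.83 and 5.51 with ND. The CDD brains were all lower but spread widely, with a coefficient of variation of 36.8% against 6.52% in the ND brains. CDD replicates 4 and 1 were again the lowest.

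The log2 fold change of *Sox10* was -0.66 (SE 0.206, 95% interval -1.103 to -0.22), the lowest point estimate of the 10 genes, and edgeR's adjusted p was 0.0644. It passed the threshold without CDD replicate 2 (-0.83, adjusted p = 0.0193) or CDD replicate 3 (-0.80, adjusted p = 0.0243), and without CDD replicate 4 it was -0.47 (adjusted p = 0.0517). DESeq2 called it (adjusted p = 0.0154). Of 14 neural crest genes, 11 were tested, 1 (*Dct*, a melanocyte enzyme) was higher with CDD and 0 were lower. The summed level was 169 to 262 CPM with CDD and 203 to 218 CPM with ND. The 262 CPM came from CDD replicate 2, the brain with the Hox counts, and the other CDD brains had 169 to 205 CPM. *Dct* lost its call without CDD replicate 1 or ND replicate 1, 3 or 4 (adjusted p 0.0547 to 0.134). *Polr2f*, a subunit of RNA polymerases, is the nearest gene before *Sox10*, 3134 bases away on the other strand. It fell by 0.22 on the log2 scale (edgeR's adjusted p = 0.0483).

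*Sox9* is expressed in radial glia and astroglia and acts early in the switch to glia (ENSMUSG00000000567, chr11:112673050-112678586, plus strand). It had 66.5, 70.7, 62.9 and 74.4 CPM in the CDD brains and 60.6, 65.3, 57.1 and 54.6 CPM in the ND brains. CDD replicate 3 lay below ND replicate 2, so the diets overlapped. *Sox9* rose by 0.21 on the log2 scale (SE 0.060, 95% interval 0.083 to 0.33), a change of 15.5%, with edgeR's adjusted p at 0.0368. The call held in only 2 of the 8 fits that left out 1 brain, those without CDD replicate 3 or ND replicate 2. In the other 6 the adjusted p was 0.0554 to 0.145, among them 0.091 without CDD replicate 2 and 0.0794 without CDD replicate 4.

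*Sox8*, the third SOXE gene, acts beside *Sox9* and *Sox10* in the oligodendrocyte lineage (ENSMUSG00000024176, chr17:25784866-25789660, minus strand). It had 19.4 to 22.1 CPM in the CDD brains and 21.7 to 23.4 CPM in the ND brains. The ranges overlapped, and the log2 fold change of -0.10 (95% interval -0.23 to 0.03) was not called (edgeR's adjusted p = 0.351), nor was it without CDD replicate 2 (-0.0908) or CDD replicate 4 (-0.122). Within the SOXE group, the count ratio of *Sox9* to *Sox10* was 24.9, 16, 15.3 and 39.5 in the CDD brains and 11.1, 13.1, 11.8 and 9.89 in the ND brains. It was higher in every CDD brain, by 0.96 on the log2 scale. *Sox8* over *Sox10* was higher by 0.64, also without overlap (exact permutation test, p = 0.0286 and adjusted p = 0.0333 for both). *Sox8* over *Sox9* was lower by 0.31 and overlapped (exact permutation test, p = 0.0571). CDD replicate 4 had the highest ratios over *Sox10*, and without it the differences were 0.678 for *Sox9* over *Sox10* and 0.384 for *Sox8* over *Sox10*. Without CDD replicate 2 they were 1.11 and 0.823.

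*Nfia* encodes the family member most closely tied to the onset of gliogenesis (ENSMUSG00000028565, chr4:97660971-98007111, plus strand). It had 154, 148, 140 and 190 CPM in the CDD brains and 124, 140, 125 and 131 CPM in the ND brains. CDD replicate 4 stood well above the others, and the lowest CDD brain was just above the highest ND brain. The fit gave a log2 fold change of 0.28 (SE 0.087, 95% interval 0.088 to 0.48), with a point estimate of 21.7% and edgeR's adjusted p at 0.0757. Without CDD replicate 4 the value was 0.18 and *Nfia* was called (adjusted p = 0.0121), and without CDD replicate 2 it was 0.316 (adjusted p = 0.0846). *Nfia* was also called without CDD replicate 3 (0.34, adjusted p = 0.02) and by DESeq2 (adjusted p = 0.00669).

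A protein-coding gene on the other strand, *E130114P18Rik*, overlaps *Nfia* in the authors' coordinates and rose by 0.32 on the log2 scale at 13.2 CPM (edgeR's adjusted p = 0.0139). The strand setting of the counting is not given in the sources used here, and the overlap is one of whole gene spans. Whether reads of the pair were mixed is therefore not known. Genes on the other strand also overlap *Nfix* (*Lyl1*, 3.22 CPM), *Nfib* (*Gm11266*, 12.9 CPM) and *Sox8* (*Cerox1*, 3.78 CPM), among others. These named genes were not called, and the same limit holds for them.

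*Nfib* (ENSMUSG00000008575, chr4:82208410-82623987, minus strand) acts with *Nfia* in forebrain glia and in the maturation of cortical neurons. It had 575, 593, 584 and 702 CPM in the CDD brains and 578, 588, 552 and 576 CPM in the ND brains. Apart from CDD replicate 4, which was the highest, the CDD brains lay close to the ND range. The difference was 0.10 on the log2 scale (95% interval -0.03 to 0.22, edgeR's adjusted p = 0.344), and it was 0.115 without CDD replicate 2 and 0.0248 without CDD replicate 4.

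*Nfix* (ENSMUSG00000001911, chr8:85426505-85526973, minus strand) acts in the maturation of neural stem cells and of neurons. It had 392.3, 394.5, 459 and 460 CPM in the CDD brains and 476, 490, 508 and 483 CPM in the ND brains. All CDD brains were lower, and here CDD replicates 1 and 2 were the lowest, unlike for *Olig1* and *Pdgfra*. *Nfix* fell by 0.20 on the log2 scale (SE 0.058, 95% interval of the change -0.32 to -0.08), a change of -12.8%, with edgeR's adjusted p at 0.0409. The call held in 2 of the 8 fits that left out 1 brain, those without CDD replicate 3 or 4. It was lost without CDD replicate 1 or 2 or any 1 ND brain (adjusted p 0.0921 to 0.183, and 0.123 without CDD replicate 2).

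Of the NFI genes only *Nfix* was called, and the family was also compared by its ratios within each brain, which show relative differences. *Nfia* over *Nfix* was 0.394, 0.374, 0.305 and 0.412 in counts in the CDD brains and 0.260, 0.285, 0.246 and 0.271 in the ND brains. Every CDD brain was higher, by 0.48 on the log2 scale in the mean. *Nfib* over *Nfix* was higher by 0.29 and *Nfia* over *Nfib* by 0.18, both without overlap (exact permutation test, p = 0.0286 and adjusted p = 0.0333 for all 3 ratios). Without CDD replicate 2 these 3 differences were 0.47, 0.272 and 0.197, and without CDD replicate 4 they were 0.423, 0.265 and 0.158. In all, 6 of the 7 ratios compared did not overlap between the diets. Each of the 6 holds *Nfia*, *Nfix*, *Sox10* or *Olig1*, which did not overlap on their own either. The ratios share genes and are not independent, and the share over other pairs of genes was not computed.

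**Figure D2:**
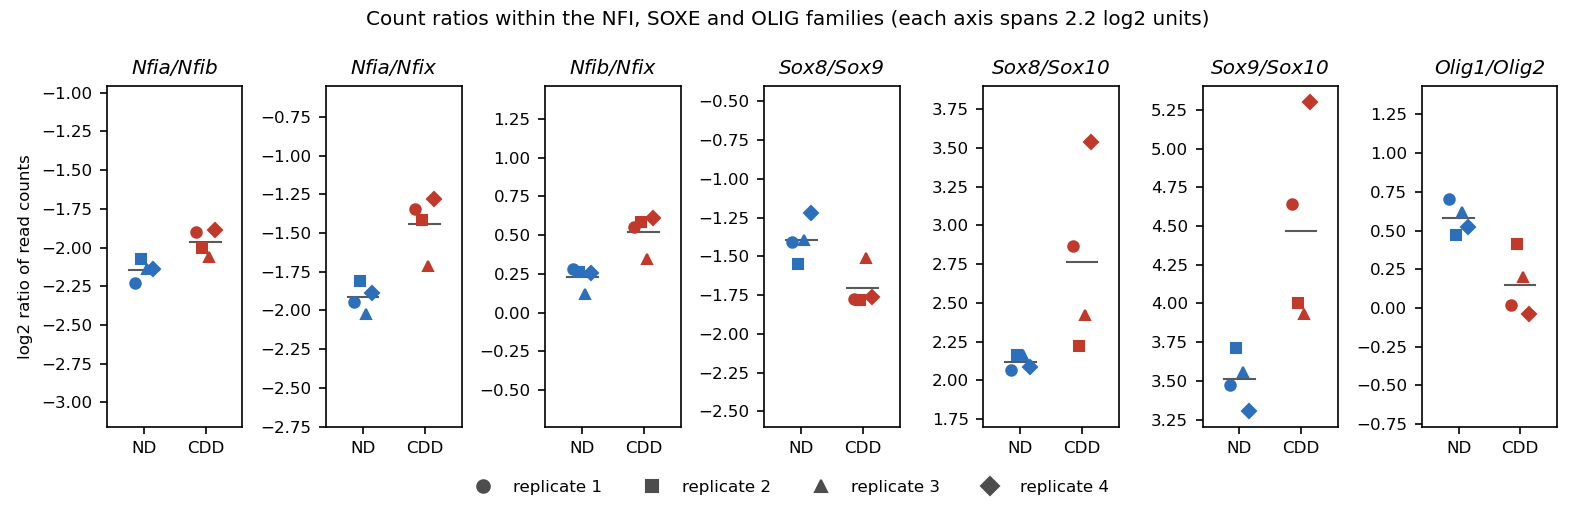
Log2 ratio of read counts of each pair of family members (vertical axes of equal span) in the 4 ND brains (blue) and the 4 CDD brains (red), with marker shapes for replicate numbers and a grey line for the mean. The diets do not overlap in 6 of the 7 ratios, and overlap for Sox8/Sox9, while the CDD brains spread most where Sox10 is the denominator.

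*Nkx2-2*, a homeodomain factor of the ventral neural tube and of differentiating oligodendrocytes (ENSMUSG00000027434, chr2:147019466-147036163, minus strand), had 6.40, 6.37, 6.02 and 7.33 CPM in the CDD brains and 6.49, 6.78, 6.39 and 5.88 CPM in the ND brains. The diets overlapped throughout. The log2 fold change was 0.03 (95% interval -0.18 to 0.24, edgeR's adjusted p = 0.894), so changes inside that interval could not be seen with these brains. It was 0.0423 without CDD replicate 2 and -0.0302 without CDD replicate 4.

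**Figure D3:**
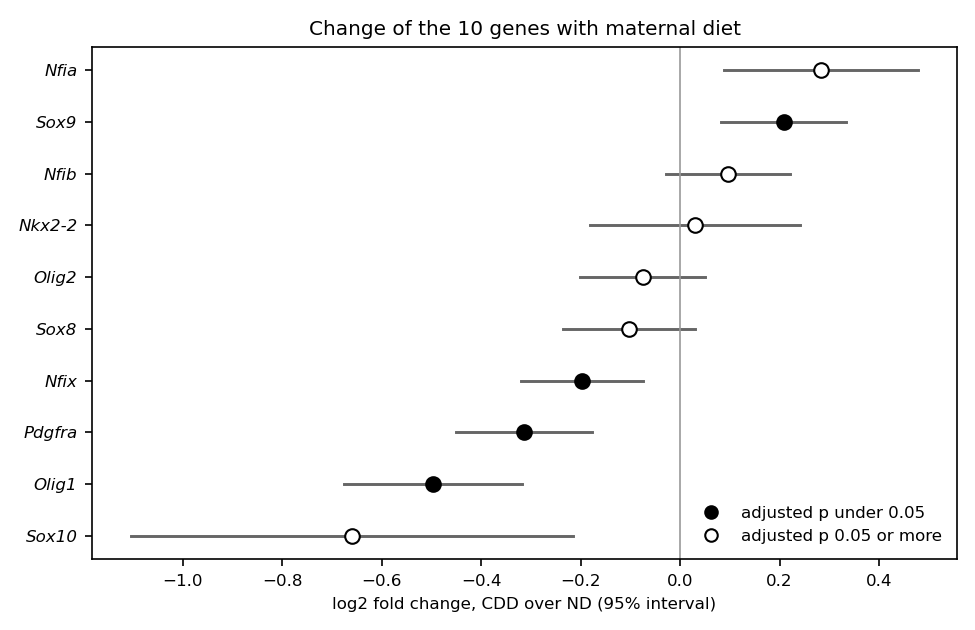
Log2 fold change of CDD over ND (horizontal axis) with its 95% interval for each of the 10 genes, ordered by value, with filled points for an adjusted p under 0.05. Olig1, Pdgfra and Nfix lie below 0 and Sox9 above it, Sox10 has the lowest value with the widest interval, and Nfia has the highest value without a call.

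For each gene, the genes with the most similar profile over the 8 brains were found by the root mean square difference of centred log2 CPM, among 15888 genes. The profile of *Olig1* was closest to *Etv4* (0.042), an ETS factor downstream of FGF signaling, then to *Gabra5* and *Caly*, and that of *Pdgfra* to *Ndrg4* (0.032), *Fabp3* and *Sh3gl2*. All 6 of these were lower with CDD (log2 fold change -0.46 to -0.30), which follows from choosing them by likeness to 2 genes that fell. *Sox10*, with its noisier profile, had no gene closer than 0.168, and its neighbours were *Amn*, *Hepacam* and *Col5a3*. *Sox9* was closest to *Garem2* (0.027), *Nfia* to *Dcc* (0.040), a netrin receptor of growing axons, and *Nfix* to *Nav2* (0.032).

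Other genes of the oligodendrocyte precursor did not move one way. Of 18 tested, 4 were lower and 3 higher with CDD, and the median log2 fold change was -0.07. The proteoglycan gene *Cspg5* fell by 0.35, *Lhfpl3* fell by 0.44, and *Gpr17*, a receptor of precursors about to differentiate, fell by 0.66 on the log2 scale (edgeR's adjusted p of 0.000902, 0.0044 and 0.00497). These 3 were called in all 8 fits that left out 1 brain. Among the higher genes, *Sox6* rose by 0.30 and *Nkx6-2* by 0.81 (edgeR's adjusted p of 0.0172 and 0.014). *Nkx6-2* lost its call without ND replicate 3 or 4 (0.0618 and 0.0557), and *Sox6* without ND replicate 1, 3 or 4 (0.0637, 0.0741 and 0.059). The list had the same counts, 4 and 3, without CDD replicate 2 and without CDD replicate 4, whereas 1 gene was higher without ND replicate 3, 2 without ND replicate 1 and 0 without ND replicate 4. *Cspg4*, at -0.24 on the log2 scale, was not called (adjusted p = 0.0516).

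Of 15 tested genes of myelin and differentiating oligodendrocytes, 2 were higher and 0 were lower with CDD, with a median of -0.03. The 2 were *Nkx6-2* and *Tcf7l2*, a Wnt effector that neurons of the thalamus also express at a high level. The call of *Tcf7l2* was lost in 5 of the 8 fits that left out 1 brain, without CDD replicate 3 or 4 or ND replicate 1, 3 or 4 (adjusted p 0.0562 to 0.182), and the list had 0 higher genes without ND replicate 3 or 4. The myelin basic protein gene *Mbp* had 30.9 CPM with CDD and 30.6 CPM with ND (edgeR's adjusted p = 0.929).

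Early astroglial genes were split as well. Of 25, 4 were lower and 3 higher, with a median of -0.12. *Tnc*, an extracellular matrix protein of radial glia, fell by 0.37, *Clu* by 0.30 and *Hepacam*, an adhesion protein of astroglia, by 0.58, whereas the glutamate transporter gene *Slc1a2* rose by 0.27 (edgeR's adjusted p of 0.000671, 0.00588, 0.0101 and 0.00287). All 4 calls held in all 8 fits that left out 1 brain. The list had 1 higher gene without ND replicate 1 or 3 and 5 without ND replicate 2.

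Further lists held other regulators, patterning genes and SOX genes. Of 30 other gliogenic regulators, 8 were higher and 2 lower with CDD, with a median of 0.14. *Rbpj*, the effector of Notch signaling, rose by 0.23, and the ciliary neurotrophic factor receptor gene *Cntfr* by 0.21 (edgeR's adjusted p of 0.00651 and 0.00928). Their calls were lost without ND replicate 3 for *Rbpj* (0.0552) and without ND replicate 4 for *Cntfr* (0.0612). The count of 8 depended on single brains, with 4 without CDD replicate 1 and 3, 2 and 1 without ND replicates 1, 3 and 4. Of 20 ventral patterning genes, 7 were higher and 0 lower, with a median of 0.21. *Olig3*, an OLIG paralog kept in this list although it marks dorsal hindbrain and thalamic progenitors, rose by 1.1 from 1.74 ± 0.360 to 3.75 ± 0.643 CPM, and *Pax6* rose by 0.25 (adjusted p of 0.00143 and 0.00642). Without CDD replicate 2, 6 of the 20 were higher, and *Olig3* stood at 1.04. Without ND replicates 1, 3 and 4, 4, 3 and 2 of the 20 were higher. Of 10 other SOX genes, 3 were higher and 0 lower (1 higher without ND replicate 1, 3 or 4), among them the progenitor factor *Sox3*, by 0.38 (adjusted p = 0.000778), while *Sox2* at 0.09 was not called (0.183).

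**Figure D4:**
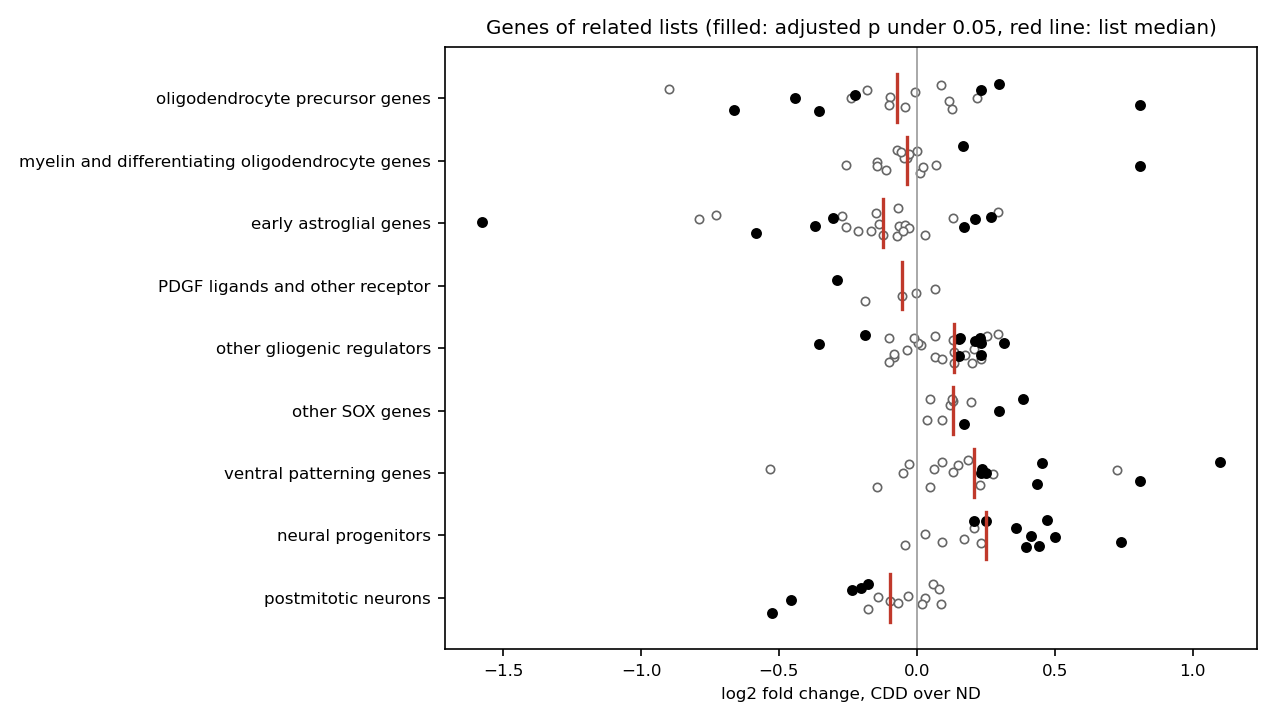
Log2 fold change of CDD over ND (horizontal axis) of every tested gene of 9 lists that do not hold the 10 genes, with filled points for an adjusted p under 0.05 and a red line at the median of each list. The oligodendrocyte precursor and early astroglial lists have called genes on both sides of 0, the progenitor and ventral patterning lists have called genes only above 0, and the neuronal list only below 0.

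Markers of progenitors, neurons and red cells were counted as well. Of 15 genes of neural progenitors, 9 were higher and 0 lower with CDD, with a median of 0.25, and their summed level was 2964 to 3509 CPM with CDD and 2532 to 2737 CPM with ND. *Ccnd1*, a cyclin, rose by 0.50 and *Hmga2*, a chromatin protein of early progenitors, by 0.74 (edgeR's adjusted p of 0.000403 and 0.000671). Of 15 neuronal genes, 5 were lower and 0 higher (median -0.10), while their summed level, 7179 to 7909 CPM with CDD and 7413 to 7712 CPM with ND, overlapped. Without CDD replicate 1, CDD replicate 4 and ND replicates 1 to 4 the count of lower genes was 2, 1, 1, 3, 0 and 1. Of 10 genes of erythroid cells, 2 were higher and 0 lower, while the median was -0.28. Their summed level overlapped, at 764 to 1426 CPM with CDD and 827 to 2995 CPM with ND. The higher genes were embryonic globin genes, among them *Hbb-y*, which marks primitive red cells. It rose by 2.24 on the log2 scale (edgeR's adjusted p = 0.00651). The part of these shifts in the values of the 10 genes was not tested.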

How the data were processed

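Whole brains from 4 CDD and 4 ND embryos were compared, grouped by maternal diet as labelled. For every gene the authors deposited the raw read count in each brain, not normalized, and FPKM values made from size-factor-scaled counts and the gene length in bases listed beside them, which is the only other column used. The submitters' processing notes name HISAT2 2.0.5, featureCounts 1.5.0-p3 and DESeq2 1.20.0. The genome build, annotation and strand setting are not given in the sources used here. The authors' size-factor-normalized values (8 columns), the diet means and their own fold changes, p-values and adjusted p-values were not used.

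From the counts, filterByExpr of edgeR 4.0.16 kept 19367 genes, TMM scaled the libraries, and the robust quasi-likelihood test of edgeR had diet as its only term, with a call at an adjusted p under 0.05 (Benjamini-Hochberg over all genes tested). The common biological coefficient of variation was 0.0814, and library totals were 31770217 to 43121170 counts, with *Sox10* and *Nkx2-2* the least covered of the 10 genes. CPM values use TMM-scaled library sizes. Within-family ratios are log2 of counts with 0.5 added, compared over all divisions of the 8 brains by an exact permutation test (two-sided) and adjusted over 7 ratios. The edgeR test was tried on simulated counts, only with changes larger than those of *Pdgfra*, *Sox9* and *Nfix*.

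The 10 genes and the lists were chosen with earlier results of these data known. From each list the text names the called genes with the smallest p-values (up to 4) and the gene with the highest FPKM, or some of them, and for each of the 10 genes those of most similar profile (among genes of at least 1 CPM) and the nearest or overlapping gene. One gene that this rule selects is not reported here. *Cspg4*, *Mobp*, *Opalin* and *Mbp* are named outside this rule, after their values were seen. Further lists (serotonergic neurons, endothelium, mural cells, microglia, choroid plexus and eye) are given at the end. Alternatives were DESeq2 1.42.0, RLE and upper-quartile scaling, limma-voom (limma 3.58.1), no filter on low counts, a minimum of 10 counts in each brain, a block for the replicate number, an offset for gene length (loess, span 0.3), the block and the offset together, a term for the *Xist* level, fits without each brain in turn, the authors' FPKM on the log2(FPKM + 1) scale with limma, and counts thinned to the smallest total. For ratios, 5 counts were added in place of 0.5. The software was R 4.3.3 and Python 3.11.15 with SciPy 1.17.1, NumPy 2.4.6, pandas 2.3.3 and matplotlib 3.10.9. Transcripts came from GENCODE M21 and promoters from RefSeq.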

Additional observations from a re-analysis of the deposited data

Results flagged for a closer look

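In 6 of 72 groups of 4 brains, 1 brain lay far from the other 3 by Dixon's 95% criterion, where chance gives about 1 in 20 groups (3.6 of 72). *Nfib* was 702 CPM in CDD replicate 4, against 575 to 593 in the other CDD brains. The log2 ratio of *Nfib* to *Nfix* was 0.119 in ND replicate 3, the lowest of its diet, and that of *Sox8* to *Sox9* was -1.51 in CDD replicate 3, the highest of its diet. The summed level of the other gliogenic regulators was 3110 CPM in ND replicate 2 and that of the early astroglial genes 1976 CPM in ND replicate 3, each the highest of the ND brains. The summed level of the Hox genes was 141 CPM in CDD replicate 2.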

How the results depend on the processing

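*Olig1* was called in all 12 other fits and *Pdgfra* in 11, *Nfix* and *Sox9* in 10 each, *Nfia* in 5 and *Sox10* in 4, with no change of direction in these genes. On the authors' FPKM with limma, 519 genes were called (214 higher, 305 lower), and of the 10 genes 1 (0 higher, 1 lower). The 10 genes had 2 called higher with DESeq2, with no filter, with the replicate block, with the gene length offset and with both, and 0 with thinned counts. With 1 brain left out, 471 to 2495 genes were called (204 to 1222 higher, 267 to 1273 lower), with 471 without ND replicate 3, 615 without ND replicate 4 and 688 without ND replicate 1, and 2 to 6 of the 10 genes (0 to 2 higher, 2 to 4 lower). The ratios kept their direction under every alternative, and with 3 against 4 brains (smallest exact permutation p 0.0571) they could not pass. *Nkx2-2* changed sign without CDD replicate 4 (-0.0302) or ND replicate 4 (-0.00721), in a range up to 0.0713. Among list genes near 0, *Pdgfrb* did so with DESeq2 (0.00165), RLE (0.000811), the length offset (0.0168), that offset with the replicate block (0.0176), FPKM (0.00287) and without CDD replicate 3 or ND replicate 4 (-0.0228 to 0.0272 with 1 brain left out). *Ttr* did with voom (-0.0733), the block (-0.0688), the offset with the block (-0.0325), FPKM (-0.0676) and without CDD replicate 1 or ND replicate 2 (-0.28 to 0.234). *Sox4* did without CDD replicate 4 (-0.0198 to 0.0962) and *Tubb3* without CDD replicate 2 (-0.0098 to 0.0574). The cause was not tested.

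The replicate numbers are shared by the diets. The deviations of same-numbered brains correlated at 0.105, -0.133, 0.117 and 0.232, and in 3 of the 4 numbers a brain correlated best with its own number, a hint from the data and not from the design, since the labels tie the numbers to nothing shared. With the replicate block 1812 genes and 5 of the 10 were called, with *Nfia* added (adjusted p = 0.0159).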

Other observations

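Marker lists of further cell types moved as follows with CDD. Of 9 genes of serotonergic neurons 1 was lower and 0 higher, of 8 of endothelium 1 was lower (*Cldn5*, a tight junction protein of the blood-brain barrier, by 0.28 on the log2 scale) and 0 higher. Of 7 of mural cells 1 was lower and 1 higher, of 9 of microglia and macrophages 2 were lower and 0 higher. Of 7 of choroid plexus and of 4 of the eye, 1 each was higher and 0 were lower. Of 10 of erythroid cells 2, both embryonic globin genes, were higher and 0 lower, and the summed level was 764 to 1426 CPM with CDD and 827 to 2995 CPM with ND. With 1 brain left out, the endothelium list kept 1 lower gene in all 8 fits, the erythroid list had 1 to 3 higher, and the counts of each of the other lists named here fell to 0 without at least 1 of the ND brains.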
